A study of Mus musculus with 9 samples.

Results

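In mouse liver, 8 genes of glycogen metabolism were examined together, 4 for enzymes that make or break down glycogen and 4 for targeting subunits of protein phosphatase 1. They were *Gys2*, *Ugp2*, *Gbe1* and *Pygl*, and *Ppp1r3b*, *Ppp1r3c*, *Ppp1r3d* and *Ppp1r3g*. These 8 were taken by name from 32285 genes in the table, and each was read in every one of the 9 liver libraries. They were selected on their normalized counts in these same libraries, so their own differences are given as a description and were not tested. Tests are given for 44 of 48 other genes of glycogen and glucose handling. These lists and tests were also chosen with earlier results of these data known.

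All livers came from Tet-OFF mice, which carried a PB *CAG*-*CreERT2* allele, a *Rosa26*-LSL-tTA allele and a *Rosa26* *tetO*-*Venus*-*ires*-*mCherry* allele. Per the study's methods the mice were male and derived from V6.5 embryonic stem cells. The mice were 4 weeks old, and every group was given tamoxifen, which lets tTA and with it Venus be made in all tissues that the *CAG*-driven CreERT2 reaches. Controls received no antibiotic. The Dox group drank doxycycline hyclate and the Tc group tetracycline hydrochloride, each at 2 mg/mL with 10 mg/mL sucrose for 7 days. Doxycycline and tetracycline share the same ring system and differ in the position of a hydroxyl group. The drugs shut the Venus transgene off, so drug, sucrose and transgene state cannot be told apart in a comparison with the controls, and whether control water held sucrose is not given in the sources used here. Feeding before the livers were taken and the time of day are not given either.

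Glycogen is the liver's store of glucose. Glucose phosphate is turned into UDP-glucose by UGP2, glycogen synthase (GYS2) adds it to the growing chain, the branching enzyme GBE1 makes the branch points, and glycogen phosphorylase (PYGL) releases glucose units when the store is drawn on. Synthase is active without phosphate and phosphorylase with it. The PPP1R3 subunits bring protein phosphatase 1 to the glycogen particle, where it removes these phosphates and so turns synthesis on and breakdown off. PPP1R3B (G-L) and PPP1R3C (PTG) are the forms best known from liver, and PPP1R3G is known as a form whose amount in liver follows fasting and feeding.

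Values are normalized counts, that is reads on a gene divided by a size factor of the library, and differences are on the scale of log2(normalized count + 1). Libraries held from 7426136 to 12183041 reads on genes. In all groups, library 3 came near to a mixture of libraries 1 and 2 (with weights of 61.3% and 34.4% for Dox), and of 4399 genes that differed over 2-fold between Dox libraries 1 and 2, library 3 lay between them for 4240. In controls this held for 540 of 645 genes and in Tc for 1033 of 1118. The study describes its samples as independent, the labels do not say whether each library is 1 mouse, and whether libraries 3 share material with the others was not tested. If they do, p-values from all 9 libraries are too small, so some results are also given without libraries 3. For the 8 genes, library 3 lay between the other libraries for 6 in controls, 7 in Dox and 7 in Tc. Dox library 2 stood apart from Dox library 1, with a median absolute log2 difference over 12100 genes of 0.70, against 0.22 between the same control libraries and 0.26 between the Tc libraries. Hepatocyte marker transcripts were abundant in every library. Their sum over 6 genes was 591329 to 794050 normalized counts in Dox and 1105840 to 1576670 in controls. *Alb* was its largest part in every library, at 255547 to 607452 in Dox and 956160 to 1408840 in controls. Of the 6 markers, 3 had a higher fitted mean in Dox (*Hnf4a*, *Cps1* and *Tat*) and 3 a lower one (*Alb*, *Ttr* and *Apoa1*). Dox and control ranges overlapped for *Hnf4a*, *Tat*, *Ttr* and *Apoa1*. *Ttr* had 55767, 6796 and 36687 normalized counts in Dox, against 32044 to 37009 in controls. None of the 6 markers passed the test. In whole liver, fewer cells of a type and less RNA per cell cannot be told apart.

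In the mouse genome (GRCm38) *Ppp1r3g* (ENSMUSG00000050423) lies on the plus strand of chromosome 13, from 35958839 to 35970388. *Ppp1r3b* lies on chromosome 8 from 35375739 to 35388139 (plus), *Ppp1r3c* on chromosome 19 from 36731731 to 36736653 (minus) and *Ppp1r3d* on chromosome 2 from 178411206 to 178414472 (minus). Of the enzymes, *Gys2* lies on chromosome 6 from 142422613 to 142473109 (minus), *Pygl* on chromosome 12 from 70190811 to 70231488 (minus), *Ugp2* on chromosome 11 from 21321138 to 21371201 (minus) and *Gbe1* on chromosome 16 from 70313949 to 70569716 (plus). All are protein-coding. *Ugp2* shares 78 bases of exon, 2.54% of its own, with Gm12043 on the opposite strand, and the strand setting of the counting is not given in the sources used here.

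The 250 bases before the start site were found in RefSeq (GRCm38.p6) for 6 of the 8 genes. The windows of *Ppp1r3g* and *Ppp1r3c* are printed because these 2 genes had the widest ranges over the libraries, and they lie on the strand of the gene, ending at the base before the start. The *Ppp1r3g* window is chr13:35967656-35967905 (plus), inside the gene as annotated above, and that of *Ppp1r3c* is chr19:36736605-36736854 (minus). Capitals mark TGACG, the core of the cyclic AMP response element, in the first and CACGTG, an E-box, in the second.
Ppp1r3g: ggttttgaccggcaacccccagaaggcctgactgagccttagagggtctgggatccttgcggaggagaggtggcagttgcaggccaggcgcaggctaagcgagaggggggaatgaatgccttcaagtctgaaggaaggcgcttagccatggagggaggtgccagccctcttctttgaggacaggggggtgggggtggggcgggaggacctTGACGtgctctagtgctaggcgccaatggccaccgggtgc
Ppp1r3c: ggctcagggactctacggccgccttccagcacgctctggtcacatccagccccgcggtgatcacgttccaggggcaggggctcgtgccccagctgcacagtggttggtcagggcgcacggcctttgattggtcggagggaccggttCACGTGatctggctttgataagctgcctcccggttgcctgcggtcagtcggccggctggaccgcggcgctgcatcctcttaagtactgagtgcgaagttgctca

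Both strands were searched for these letters. They were also searched for a forkhead element (GTAAACA), for a half-site of the glucocorticoid receptor (AGAACA) and for a TATA box written as TATAAA. On the opposite strand TGACG reads CGTCA, and CACGTG reads the same. TGACG lay from 40 to 36 bases before the *Ppp1r3g* start, and its letters were held by 17.8% of 32841 mouse promoter windows of this length. CACGTG lay from 104 to 99 bases before the *Ppp1r3c* start, and 6.02% of windows held it. *Pygl* had CGTCA from 44 to 40 bases before its start. *Ppp1r3d* had CACGTG and TGACG, which share 2 letters there, and a further match to CGTCA. The forkhead element (held by 3.17% of all windows), the glucocorticoid receptor half-site (16.1%) and the TATA box (12.4%) were not among the letters of the windows of these 6 genes. A match of letters is a description and no evidence of binding.

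**Figure D1:**
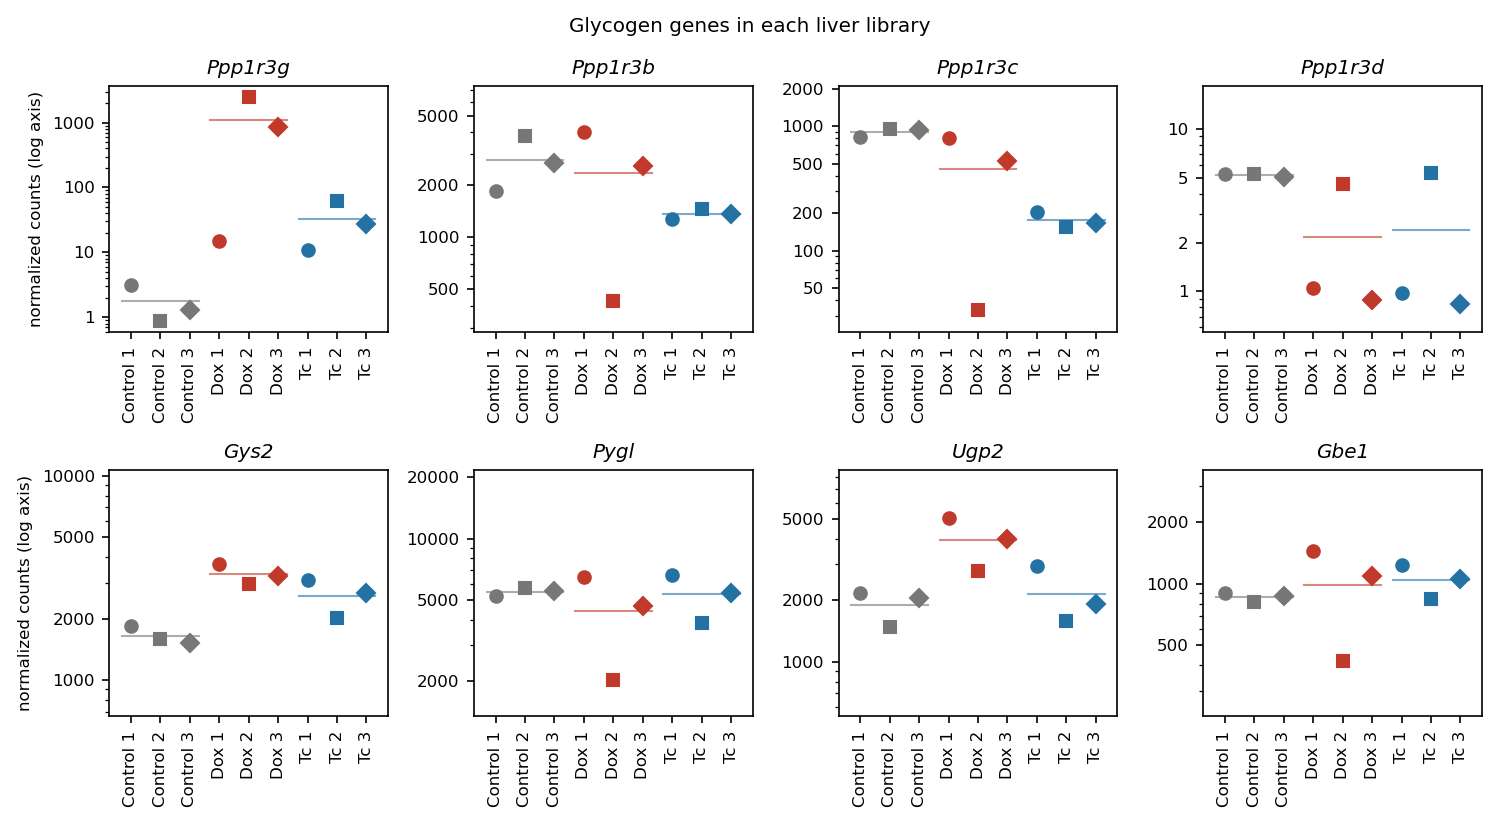
Normalized counts (log axis) of the 8 genes in each of the 9 liver libraries, with a line at each group mean. Symbols mark libraries 1 (circle), 2 (square) and 3 (diamond) of a group. *Ppp1r3g* ran from 0.88 in control library 2 to 2443 in Dox library 2, while *Ppp1r3b* and *Ppp1r3c* were lowest in Dox library 2.

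Of the subunits, *Ppp1r3g* had the widest range of all 8 genes, 10.34 on the log2 scale. Its normalized counts were 3.18, 0.88 and 1.27 in control libraries 1, 2 and 3, then 14.7, 2443 and 849 in Dox and 10.7, 61.1 and 27.0 in Tc. Every Dox and Tc library lay above every control library, and Dox library 1 lay within the range of the Tc libraries. The controls held 3, 1 and 1 reads and Dox library 2 held 2124, so a ratio to the controls rests on 5 reads. Dox library 2 was 1398 times the pooled controls (exact 95% interval from counting error 598 to 4311), and Dox library 1 was 8.44 times (2.87 to 29.9). For Tc the ratio ran from 6.15 times in library 1 (1.97 to 22.6) to 35.0 times in library 2 (14.3 to 111). Intervals cover counting error only. The value of 849 in Dox library 3 lay beside 849.6 for the weighted sum of libraries 1 and 2. The fitted log2 differences, which depend on the added count for a gene this low in controls, were 6.93 for Dox against control, 3.39 for Tc against control and 3.55 for Dox against Tc, with a standard error of 1.61 each. The Dox difference from control was 9.11 without Dox library 1 and 5.47 without Dox library 2, and that from Tc was 5.72 and 2.08. With single libraries left out, the Tc difference from control ran from 2.79 to 3.99. *Ppp1r3g* passed the filter on low values only through the treated libraries.

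*Ppp1r3b*, which encodes G-L, had 1848, 3792 and 2680.1 normalized counts in controls, 3998, 426 and 2579 in Dox and 1267, 1443 and 1364 in Tc. All Tc libraries lay below all controls. The Dox libraries lay on both sides of them, with Dox library 1 the highest of the 9 and Dox library 2 the lowest. The log2 difference was -0.70 for Dox against control, -0.97 for Tc against control and 0.27 for Dox against Tc, with a standard error of 0.71 each. Without Dox library 2 the Dox difference changed sign, to 0.27 (SE 0.28). The difference between Dox and Tc changed sign too, to -0.37 without Dox library 1, -0.055 without Dox library 3 and -0.051 without libraries 3.

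*Ppp1r3c*, which encodes PTG, had 826, 954 and 931 normalized counts in controls. It had 804, 33.4 and 525 in Dox and 205, 156 and 168 in Tc. Tc libraries sat in a narrow band well below controls, whereas Dox library 1 was just under the lowest control and Dox library 2 was the lowest of all 9. The log2 difference was -1.89 for Dox and -2.36 for Tc against control, and 0.47 for Dox against Tc, with a standard error of 0.98 each. Leaving out Dox library 2 moved the Dox difference to -0.47. Without libraries 3 the Dox and Tc differences were -2.42 and -2.30 (SE 1.38). The difference between Dox and Tc was 1.89 without Dox library 2, and it changed sign to -0.39 without Dox library 1, -0.083 without Dox library 3 and -0.11 without libraries 3.

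*Ppp1r3d* was close to absent. It had 5.29, 5.31 and 5.09 normalized counts in controls, 1.05, 4.6 and 0.88 in Dox and 0.98, 5.40 and 0.84 in Tc. These values rest on 6 reads or fewer a library. It was the only one of the 8 genes under the filter of a mean of 10 normalized counts, and no fold is given.

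**Figure D2:**
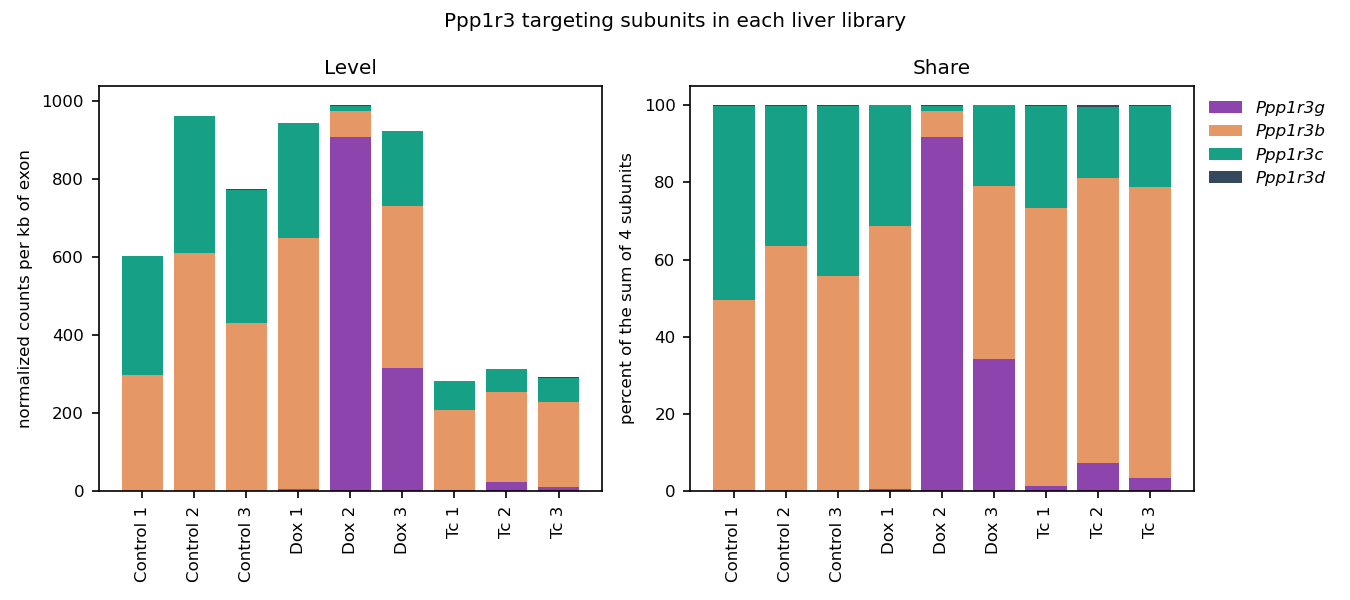
Levels of the 4 Ppp1r3 subunits in each library, as normalized counts per kb of exon (left) and as percent of their sum (right). *Ppp1r3g* made up 91.7% of the sum in Dox library 2 and under 0.2% in each control library, and the summed level was lowest in Tc.

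Divided by exon length, the 4 subunits can be set against each other within a library. Their summed level was 603, 962 and 775 normalized counts per kb in controls, 944, 989 and 923 in Dox and 283, 314 and 291 in Tc. The Dox sums thus lay within or just above the control range, and the Tc sums lay under every control and every Dox library. How often sums of other genes separate in this way was not computed. What made up the sum differed. *Ppp1r3b* and *Ppp1r3c* held nearly all of it in each control, with *Ppp1r3b* at 49.3%, 63.4% and 55.7%. In Dox library 1 the split was 68.1% *Ppp1r3b*, 31.3% *Ppp1r3c* and 0.58% *Ppp1r3g*. In Dox library 2 it was 6.92%, 1.24% and 91.7% in the same order, and in Dox library 3 44.9%, 20.9% and 34.1%. In Tc *Ppp1r3b* held 71.9% to 75.4%, *Ppp1r3c* 18.3% to 26.6% and *Ppp1r3g* 1.41% to 7.23%. The sums in Dox libraries 1 and 2 were thus similar, with a different main subunit in each.

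Among the enzymes, *Gys2*, the liver glycogen synthase, was higher in every treated library than in any control. Its normalized counts were 1841, 1594 and 1521 in controls, 3691, 2967 and 3235 in Dox and 3081, 2015 and 2667 in Tc. Only Tc library 2 came near the controls. The log2 difference was 1.0 for Dox and 0.63 for Tc against control, and 0.37 for Dox against Tc, with a standard error of 0.18 each. Of the 7 genes above the filter, *Gys2* had the narrowest range over the 9 libraries (1.28 on the log2 scale), and Dox libraries 1 and 2 differed in it by only 1.24 times.

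*Ugp2*, which makes the UDP-glucose that synthase uses, had 2168, 1484 and 2059.6 normalized counts in controls, 5034, 2772 and 3974 in Dox and 2942, 1582 and 1919 in Tc. All Dox libraries lay above all controls, and the Tc libraries overlapped with them. The log2 difference was 1.02 for Dox and 0.14 for Tc against control, and 0.88 for Dox against Tc, with a standard error of 0.29 each. The Tc difference from control changed sign without control library 2 (-0.026) and without Tc library 1 (-0.11).

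*Gbe1*, the branching enzyme, had 902, 818 and 868 normalized counts in controls, 1444, 421 and 1097 in Dox and 1239, 844 and 1055 in Tc. *Pygl*, the liver phosphorylase, had 5244, 5722 and 5509 in controls, 6517, 2016 and 4685 in Dox and 6657, 3865 and 5438 in Tc. In both genes the controls were close together, and Dox libraries 1 and 2 lay on opposite sides of them. The log2 differences of *Gbe1* were 0.02 for Dox and 0.26 for Tc against control (SE 0.39), and those of *Pygl* were -0.47 and -0.08 (SE 0.40). Between Dox and Tc they were -0.24 for *Gbe1* and -0.39 for *Pygl*. Most of these directions turned in other fits. For Dox against control *Gbe1* was below 0 in 4 other fits, from -0.34 without Dox library 1 to -0.018 without control library 2, and *Pygl* was 0.01 without Dox library 2. Between Dox and Tc both changed sign without Dox library 2, to 0.28 for *Gbe1* and 0.09 for *Pygl*, and *Pygl* for Tc against control was 0.13 without Tc library 2.

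**Figure D3:**
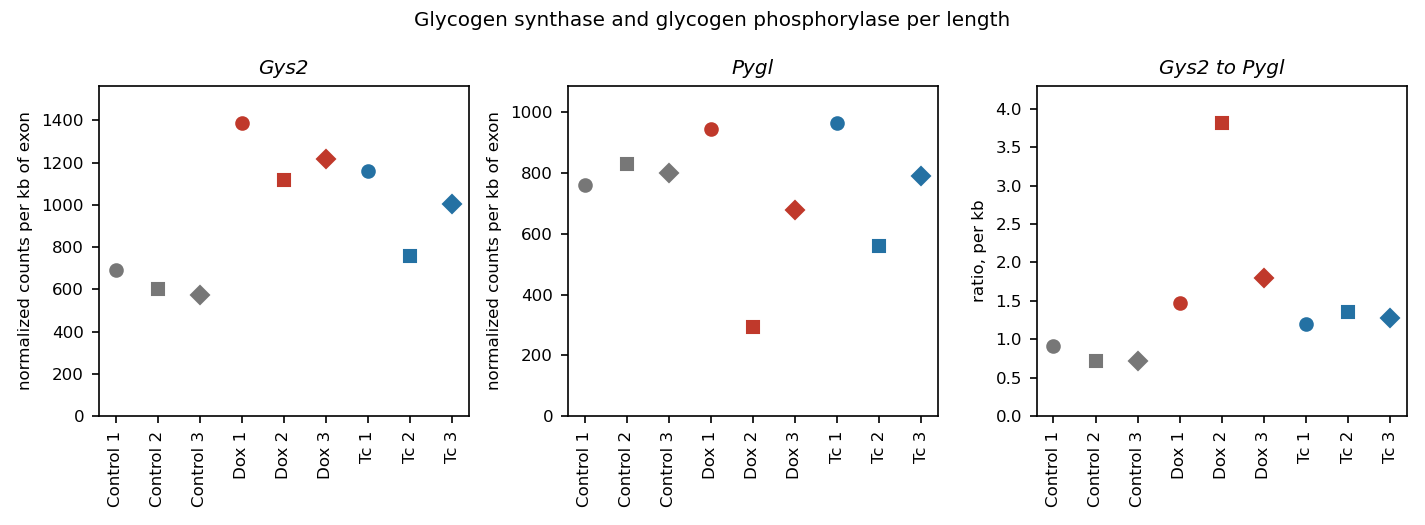
Levels of *Gys2* and *Pygl* in normalized counts per kb of exon, and their ratio, in each library. The ratio was below 1 in every control library and above 1 in every Dox and Tc library, with the highest value, 3.82, in Dox library 2.

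Per kb of exon, the ratio of *Gys2* to *Pygl* was 0.91, 0.72 and 0.72 in controls, 1.47, 3.82 and 1.79 in Dox and 1.20, 1.35 and 1.27 in Tc. The 3 groups did not overlap in this ratio. *Gys2* and *Pygl* were picked with these data known. How many other gene pairs separate in this way was not computed, so nothing is read from it. In Dox library 2 the high ratio came with a low *Pygl* level (292 per kb against 945 in Dox library 1), whereas *Gys2* was 1117 and 1389 per kb in these libraries.

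In the order of levels per kb, controls had *Pygl* (796 ± 34.7, SD, n = 3), *Gys2* (622 ± 63.1), *Ugp2* (620.3 ± 120), *Ppp1r3b* (446 ± 157), *Ppp1r3c* (331 ± 25.0), *Gbe1* (161 ± 7.85), *Ppp1r3d* (1.60 ± 0.038) and *Ppp1r3g* (0.66 ± 0.46). *Gys2*, *Ugp2* and *Ppp1r3b* overlapped with each other in their library values, and *Ppp1r3b* also with *Ppp1r3c*. In control library 2 *Ppp1r3b*, at 610.0 per kb, was above *Gys2* at 600.0. In Dox library 2 *Ppp1r3g*, last in controls, was second at 907 per kb, after *Gys2* at 1117 and level with *Ugp2* at 903.

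**Figure D4:**
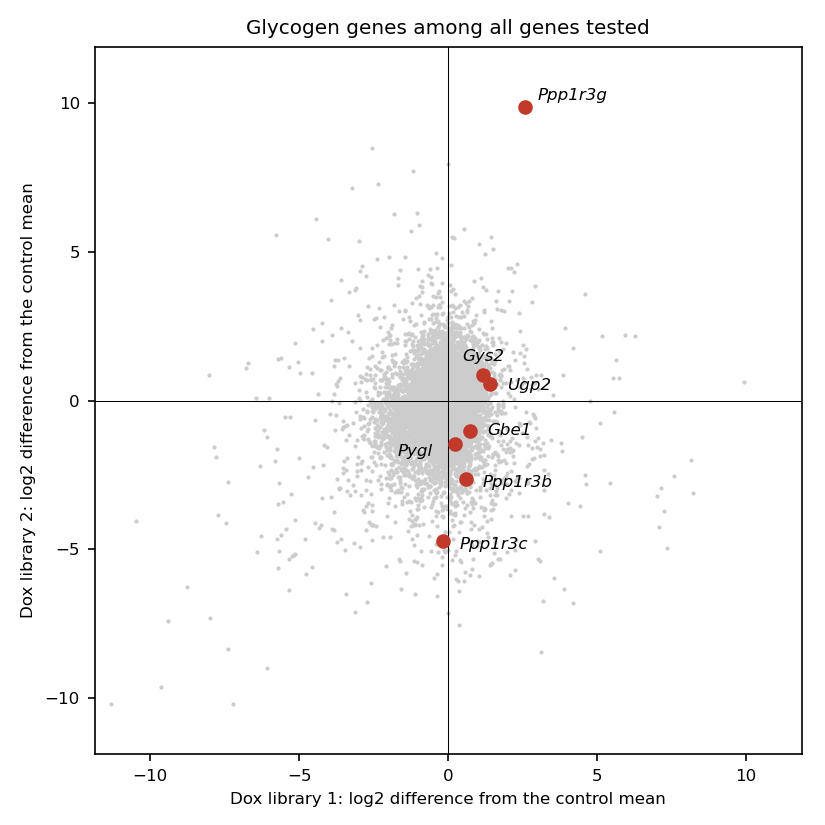
Log2 difference from the control mean in Dox library 1 (horizontal) and Dox library 2 (vertical) for 12100 genes (grey), with the 7 glycogen genes above the filter in red. *Ppp1r3g*, *Gys2* and *Ugp2* were above the control mean in both libraries, and *Ppp1r3b*, *Gbe1* and *Pygl* were above it in library 1 and below it in library 2.

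Dox libraries 1 and 2 differed in these genes to unequal degrees. From library 1 to library 2 the log2 difference was 7.28 for *Ppp1r3g*, -4.55 for *Ppp1r3c*, -3.23 for *Ppp1r3b*, -1.78 for *Gbe1*, -1.69 for *Pygl*, -0.86 for *Ugp2* and -0.31 for *Gys2*. By size of this difference *Ppp1r3g* was number 45, *Ppp1r3c* number 218 and *Ppp1r3b* number 504 of 12100 genes. *Gbe1* was number 1714, *Pygl* number 1860, *Ugp2* number 5071 and *Gys2* number 9240. Of the 7 genes, 3 lay on opposite sides of the control mean in the 2 libraries, against 47.6% of all 12100 genes. Between control libraries 1 and 2 *Ppp1r3b* also differed, by 1.04 on the log2 scale (number 544 by size), so its spread was not confined to Dox. In Tc *Gys2*, *Pygl*, *Ugp2* and *Gbe1* were all lower in library 2 than in library 1, by 0.55 to 0.89 on the log2 scale.

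Of the 7 genes above the filter, groups did not overlap for 3 genes that were higher in Dox than in controls (16.1% of all genes) and 1 that was lower (17.1%), and for 2 higher (15.8%) and 2 lower (14.9%) in Tc. Between Dox and Tc, all 7 overlapped (12.2% of all genes were higher and 12.4% lower without overlap). Over all genes, deviations of Dox and Tc libraries with the same number were correlated, and within these pairs *Ppp1r3g*, *Gys2* and *Ugp2* were higher in Dox in all 3 (20.8% of all genes) and *Pygl* was lower in all 3 (22.7%). In pairs 1, 2 and 3 the log2 difference of *Ugp2* was 0.77, 0.81 and 1.05, and that of *Gys2* was 0.26, 0.56 and 0.28. In the fit with a replicate block, the standard error of the difference between Dox and Tc was 0.15 for *Ugp2* and 0.15 for *Gys2*. With libraries 3 near sums of the others, the third pair is not independent of the other two. Nothing is read from these counts, since the genes were picked with these contrasts known. The comparisons of Dox and of Tc with controls also share the control libraries.

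Around these 8 genes, 48 others of glycogen and glucose handling were counted in 5 lists, and 44 of them passed the filter on low values. For Dox against control 5 of the 44 were called, 4 lower and 1 higher, against 5.0% of all genes. Their median log2 difference was 0.02, against 0.00 over all genes. Without libraries 3, none of the 5 was called by limma (adjusted p 0.558 to 0.572, with 0% of all genes called) or by DESeq2 (0.125 to 0.379, with 1.20% called), while their unadjusted p-values in the limma fit ran from 0.014 to 0.037. Leaving out single libraries gave from 0 to 7 calls, with 0 without control library 2, control library 3 or Dox library 3. It gave 1 without control library 1, 2 without Tc library 3 and 7 without Dox library 1 or Dox library 2. Calls over all genes rose and fell with this count. They were 32 without control library 3, 1114 (9.22%) without Dox library 2 and 1511 (12.5%) without Dox library 1. The range from 0 to 7 is therefore not read as particular to these genes.

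**Figure D5:**
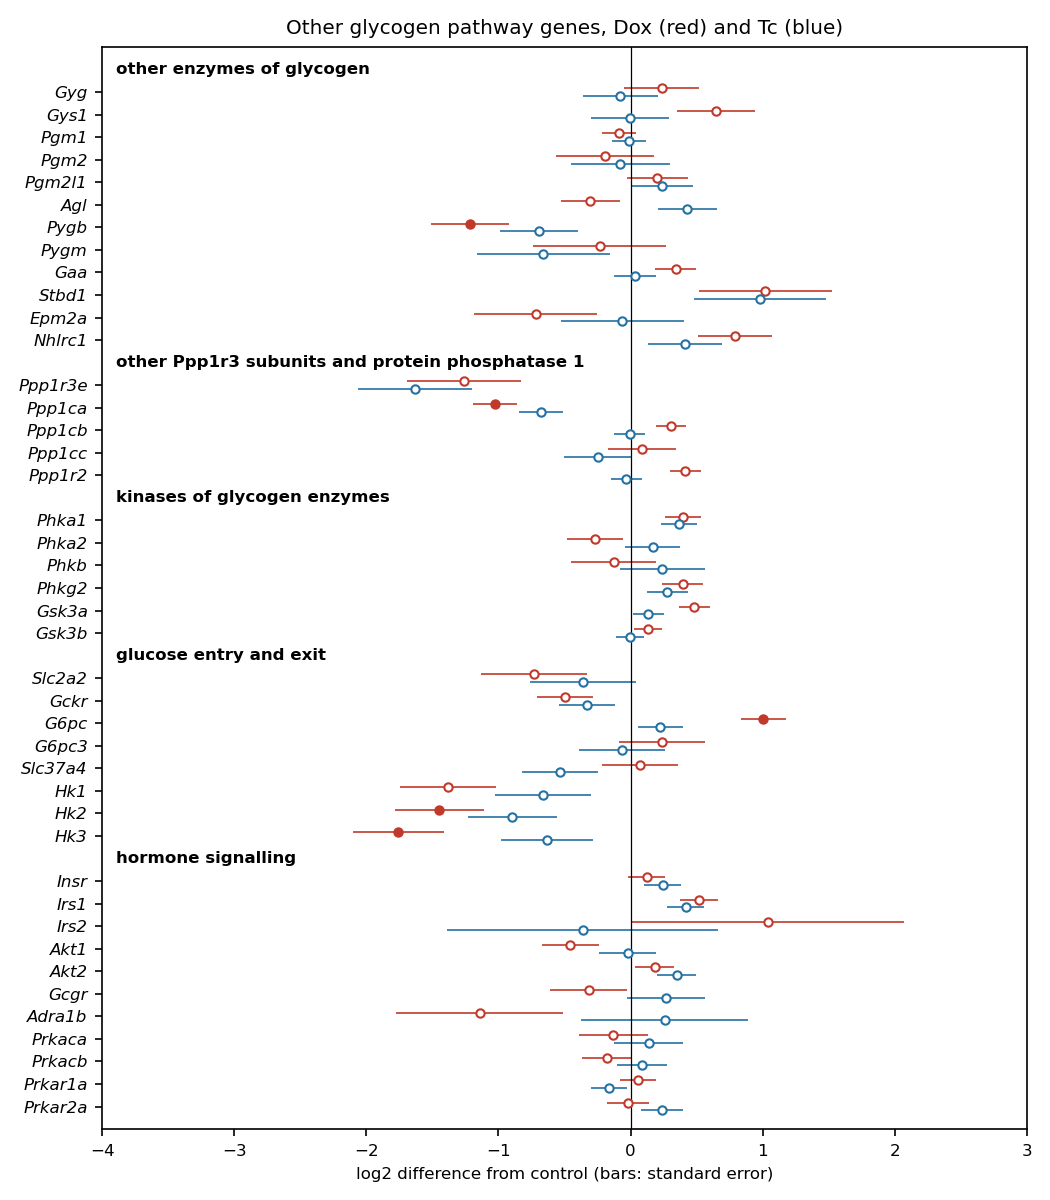
Log2 differences from control of 42 of the 44 other glycogen pathway genes above the filter, Dox in red and Tc in blue, with standard errors from the limma fit of all 9 libraries. Filled points passed both thresholds: *Pygb*, *Ppp1ca*, *Hk2* and *Hk3* below 0 and *G6pc* above 0, all for Dox.

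In the list of glucose entry and exit, 2 of 9 genes fell with Dox, 1 rose and 6 did not pass. *G6pc*, whose product frees glucose from glucose phosphate in the last step before release, had 3055, 3727 and 3585 normalized counts in controls, 7265, 6620.0 and 6889.6 in Dox and 3378, 4937 and 3922 in Tc. Its Dox libraries lay close together, far above the rest. It rose by 1.01 on the log2 scale (SE 0.17, adjusted p = 0.015, limma), and it was not called by DESeq2. *Hk3* and *Hk2*, hexokinases found mainly outside hepatocytes, fell by 1.76 (SE 0.35, adjusted p = 0.023, limma) and by 1.45 (SE 0.34, adjusted p = 0.036, limma). *Hk3* had 84.7, 81.4 and 90.3 normalized counts in controls, 28.4, 21.9 and 23.8 in Dox and 31.2, 93.5 and 55.6 in Tc, so that only Dox lay wholly below the controls. *Hk1*, another hexokinase, missed the limma threshold (-1.38, SE 0.36, adjusted p = 0.051) and was called by DESeq2, as were 9.40% of all genes. Beside these hexokinases, all 4 Kupffer cell markers were lower in Dox (2 called), with a summed level of 1853 to 4437 normalized counts against 6602 to 11095 in controls. All 4 sinusoidal endothelial markers had a lower fitted mean too (1 called), with sums of 1749 to 2269.5 against 3541 to 3791. *Lyve1* overlapped between the groups, at 96.9, 319 and 181 in Dox and 236, 178 and 244 in controls. None of these markers was at 0 throughout a group, and their part in the hexokinase values was not tested.

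Of 12 other enzymes of glycogen, 1 fell with Dox and 11 did not pass. *Pygb*, the phosphorylase form of brain and other tissues, had 119, 207 and 163 normalized counts in controls, 46.3, 89.7 and 74.8 in Dox and 83.0, 124 and 91.0 in Tc. It fell by 1.22 on the log2 scale (SE 0.30, adjusted p = 0.043, limma). The part in it of the lower Kupffer and endothelial marker sums given above was not tested. *Stbd1*, which anchors glycogen to membranes, had 193, 419 and 311 normalized counts in controls, 1064, 253 and 786 in Dox and 675, 481 and 595 in Tc. Dox library 2 alone of the treated libraries lay within the control range. Its log2 difference was 1.02 for Dox (adjusted p = 0.212, limma) and 0.98 for Tc against control (adjusted p = 0.51, limma), and 0.04 for Dox against Tc, with a standard error of 0.50 each. Without Dox library 2 the Dox difference was 1.64 and passed (adjusted p = 0.0084, limma). In that fit 9.22% of all genes passed, against 5.0% with all 9 libraries. *Pygm*, the muscle phosphorylase, was low, at 13.8, 18.6 and 22.9 normalized counts in controls, 32.6, 6.90 and 15.0 in Dox and 10.7, 13.5 and 9.26 in Tc. Skeletal muscle markers summed to 61.0 to 84.0 in controls, 0 to 81.1 in Dox and 5.86 to 7.19 in Tc.

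Of 8 other phosphatase genes 5 passed the filter, and *Ppp1r3a*, the muscle subunit, was at 4.21 normalized counts or less in every library. *Ppp1ca*, a catalytic subunit of protein phosphatase 1 to which the PPP1R3 proteins bind, had 1918, 1970.2 and 2035 normalized counts in controls, 1204, 751 and 1005 in Dox and 1219, 1283 and 1196 in Tc. Treated and control libraries were well apart. It fell with Dox by 1.03 (SE 0.17, adjusted p = 0.014, limma), and the Tc difference of -0.68 did not pass (adjusted p = 0.185, limma). *Ppp1r3e*, another targeting subunit, had 59.3, 39.8 and 54.7 normalized counts in controls, 10.5, 41.4 and 19.4 in Dox and 14.6, 17.1 and 15.2 in Tc. Its Tc difference was -1.63 (SE 0.43), with an adjusted p of 0.218 in limma and 0.019 in DESeq2, and it was not called by either without libraries 3 (0% of all genes by limma and 0.0744% by DESeq2).

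None of 6 kinases of glycogen enzymes above the filter, among them the phosphorylase kinase subunits and *Gsk3a* and *Gsk3b*, passed in any comparison with limma or DESeq2. At an unadjusted limma p under 0.05, 3 of the 6 were higher in Dox (13.6% of all genes) and 1 in Tc (5.27%) than in controls, and 1 was higher in Dox than in Tc (10.6%). Of 12 hormone signalling genes none passed in limma. At an unadjusted p under 0.05, 1 of the 12 was higher in Dox (13.6% of all genes) and 2 in Tc (5.27%) than in controls, and 0 differed between Dox and Tc (21.7%). *Irs2*, an adaptor of the insulin receptor, had 739, 528 and 633 normalized counts in controls, 179, 5844 and 2065 in Dox and 399, 620.5 and 467 in Tc. Like *Ppp1r3g* it was very high in Dox library 2, but unlike it Dox library 1 was the lowest of the 9. Its log2 difference was 1.04 for Dox against control (SE 1.03, adjusted p = 0.526, limma), it was called by DESeq2, and it was -0.044 without Dox library 2. *Adra1b*, a receptor through which adrenaline starts glycogen breakdown, had 507, 486 and 455 normalized counts in controls, 500.2, 62.1 and 331 in Dox and 541, 576 and 618 in Tc. Dox library 2 was far below all others. Its log2 difference was -1.14 for Dox against control (adjusted p = 0.263, limma) and -1.40 for Dox against Tc (adjusted p = 0.239, limma), with a standard error of 0.63 each. Without Dox library 2 these were -0.24 and -0.50. Without Dox library 1 they were -1.74 and -1.999, of which the second passed (adjusted p = 0.0398, limma). For Dox against Tc, 11.3% of all genes passed in that fit, against 0.215% with all 9 libraries.

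For Tc against control none of the 44 genes was called by limma, 7 had an unadjusted p under 0.05 (3 higher and 4 lower, against 11.7% of all genes), and DESeq2 called 1, *Ppp1r3e*. Over all genes 0.165% were called by limma and 1.56% by DESeq2. Their median log2 difference was -0.01, against 0.00 over all genes.

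The comparison of Dox with Tc set 2 related compounds side by side at the same concentration in drinking water and for the same time. How much of each was drunk is not given in the sources used here. None of the 44 genes was called by limma (0.215% of all genes were), 6 had an unadjusted p under 0.05 (4 higher and 2 lower, against 21.7% of all genes), and DESeq2 called 2 (4.98% of all genes), *Irs2* higher and *Hk3* lower with Dox. The median of their differences was -0.05, and -0.02 over all genes. For 23 of the 44 genes the 95% interval of the difference stayed within 2-fold either way, and for 21 it reached 2-fold, so a missed threshold does not show that both compounds acted alike. *Hk3* differed by -1.12 on the log2 scale (95% interval -1.91 to -0.34, adjusted p = 0.148, limma). *G6pc* differed by 0.78 (0.39 to 1.17, adjusted p = 0.096, limma) and *Gsk3b* by 0.14 (-0.10 to 0.37). Without libraries 3, the interval stayed within 2-fold for 14 genes, and 30 reached it. With the replicate number as a block, 0 of the 44 genes were called for Dox against Tc and for Tc against control (0.0165% of all genes in each) and 6 for Dox against control (4.6% of all genes), *Hk1* being added.

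The genes whose pattern was most like that of the 3 most variable members were found by Pearson's r of log2 values over the 9 libraries, as a description. For *Ppp1r3g* these were *Zc3h7a* (r = 0.98), 6720427I07Rik (0.97) and *Maff* (0.97), whose highest values were all in Dox library 2. Since r does not measure the size of a change, ranges differed widely. *Zc3h7a* ran only from 212 to 373 normalized counts and 6720427I07Rik from 20.3 to 49.5. *Maff*, a small MAF transcription factor, had 27.5, 14.2 and 17.8 normalized counts in controls, 55.8, 679 and 282 in Dox and 48.8, 40.5 and 48.8 in Tc. For *Ppp1r3c* they were *Gas7* (0.99), *Fam131c* (0.98) and *Slc30a10* (0.98), and for *Ppp1r3b* *Fam213b* (0.98), *Tedc2* (0.97) and *Sept10* (0.96). *Slc30a10*, a manganese transporter, had 462, 524 and 502 normalized counts in controls, 489, 39.1 and 325 in Dox and 213, 192 and 192 in Tc, again with Dox library 1 near the controls, Dox library 2 the lowest and Tc in between. Without libraries 3, r over the remaining 6 libraries was 0.95 or more for each of these 9 genes. The genes were picked by r over all 9 libraries, these 6 among them, so this value is no separate check. Points of the same group share the drug, and 1 library, Dox library 2, sits at the end of each range.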

How the data were processed

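RNA of 9 liver libraries (3 control, 3 Dox, 3 Tc) was sequenced as 86-bp single-end reads with a directional kit. Per the submitters' processing notes, the authors trimmed reads with cutadapt, aligned them with STAR to mm10, counted them per gene with HTSeq 2.0.5 and normalized them with DESeq2 1.42.0. Values were deposited as normalized counts, a signal that the size factors put on a common scale. Symbols were matched for 32158 of 32285 identifiers, and lengths are unions of exons in GENCODE for GRCm38. Divided by what 1 read is worth in its library, 100% of values came out whole to within 0.01, so reads were recovered.

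Log2(value + 1) was fitted with limma 3.58.1 (R 4.3.3, trend, 1 model of all 9 libraries) for 12100 genes with a mean of at least 10, with Benjamini-Hochberg adjustment. Called genes had a fold change over 2 and an adjusted p under 0.05. DESeq2 and edgeR 4.0.16 on the recovered reads, other pseudocounts, filters and scalings, fits of only the groups compared, a replicate block, fits without libraries 3 and each library left out were alternatives. The scripts were tested on simulated data. The 8 genes, the gene lists and the tests were chosen with earlier results of these data known. Other genes named were those called by limma or DESeq2, and in each comparison the 5 with the largest limma difference at a mean of at least 50. For the 3 members of widest range, the 3 other genes with the highest r were named too, and *Pygm*, *Ppp1r3a* and *Gsk3b* were named after their values were seen. For 2 genes of the lists, values are not reported here, though the counts include them. Labels do not say whether libraries of a group came from separate mice. Same-numbered Dox and Tc libraries, numbered in the sample labels, deviated together (r = 0.29, 0.32 and 0.18), control libraries did not (-0.08 to 0.06), and with libraries 3 near sums of the others these values are not independent.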

Additional observations from a re-analysis of the deposited data

How the results depend on the processing

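The count of 5 other glycogen genes called for Dox against control (5.0% of all genes) was 2 with the same total set for every library (4.72%). It was 3 with only the groups compared in the fit (2.81%). Without libraries 3 it was 0 by limma (0%) and 0 by DESeq2 (1.20%). With single libraries left out it was 0 to 7, while calls over all genes ran from 32 to 1511. Under the same total, the median of all genes moved to 0.17 for Dox against control (to 0.16 for Dox against Tc), and *Gys2* stood at 1.17. For Tc against control the count of 0 (0.165% of all genes) became 1 at a fold change over 2 with an unadjusted p under 0.05. It was 1 with DESeq2 (1.56% of all genes) and 1 with only the groups compared (2.33%). With single libraries left out it was 0 to 1, while calls over all genes ran from 1 to 225. For Dox against Tc the count of 0 (0.215% of all genes) became 1 at a fold change over 2 with an unadjusted p under 0.05. It was 2 with DESeq2 (4.98% of all genes). With single libraries left out it was 0 to 3, while calls over all genes ran from 0 to 1366. The number of members with a difference above 0 was 4 for Dox (3 to 6 with single libraries left out), 4 for Tc (3 to 5) and 5 for Dox against Tc (3 without libraries 3, and 3 to 7). Without Dox library 2, *Irs2* for Dox against control (-0.044 to 2.47 with single libraries left out) was reversed, at -0.044. Of the members' differences *Ppp1r3b*, *Ppp1r3c*, *Pygl*, *Gbe1* and *Ugp2* each changed sign in at least 1 comparison, as given beside their values. *Ppp1r3g* in Tc was 1.87 with a pseudocount of 8. The replicate block added *Hk1* to the other genes called for Dox against control (6 calls), and gave 0 calls among the other genes for Tc and for Dox against Tc, also with only Dox and Tc in the fit. Where a value moved, the cause was not tested. Depth limits *Ppp1r3d* and the control level of *Ppp1r3g*, which rest on few reads.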
